A study of Arabidopsis thaliana with 12 samples.

Results

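The 43 genes described here are the nuclear genes for the proteins of both photosystems and of their light-harvesting antennae in Arabidopsis thaliana, a small plant widely used in genetics. They are the rows with 43 listed locus codes among the 33331 genes of the deposited table. The set holds 6 LHCA genes for the antenna of photosystem I, 15 LHCB genes for the antenna of photosystem II, 12 genes for photosystem I subunits and 10 for photosystem II subunits. All 43 were in the table and 42 passed the filter on low counts. The exception was LHCA6, a rare antenna protein that links photosystem I to the NADH dehydrogenase-like complex, which stood between 0 and 1.31 CPM in every library and was not tested. CPM are counts divided by the library total, scaled by edgeR's TMM factors, and multiplied by 1000000.

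Plants capture light with chlorophyll-binding antenna proteins that pass the energy to photosystem II, which splits water, and to photosystem I, which reduces ferredoxin. The reaction-centre proteins are encoded in the plastid, whereas the antenna proteins and most peripheral subunits are encoded in the nucleus and imported. The transcripts of these nuclear genes are among the most abundant of a leaf, follow light and the clock, and are known to be lowered when plants mount an immune response.

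The assay was 3′ RNA-seq, in which reads come from mRNA ends, on whole shoots harvested from plants 2 weeks old and kept at 22 °C and 50% humidity under 100 µmol m-2 s-1 of constant light. The libraries came from 4 genotypes, wild-type Col-0, the mutant aig2abc (in AIG2A, AIG2B and AIG2C, by its name), the mutant pad4, and aig2abc pad4, which carries both, with 3 libraries each. PAD4, which resembles lipases, acts in plant immunity and raises salicylic acid signalling, so that the pairs aig2abc with Col-0 and aig2abc pad4 with pad4 ask how the aig2abc mutations act with and without it. The alleles are not given in the labels used here, and no label says whether replicates were grown apart, so every p-value rests on a spread between libraries that may be technical.

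Total counts were 6561011 to 9742035 in Col-0, 7991739 to 10697612 in pad4 and 5542138 to 8330632 in aig2abc pad4, but only 584342 to 3005199 in aig2abc, where replicate 2 was the shallowest library. Of the targeted genes, AIG2C and PAD4 followed the labels. AIG2C stood at 0 to 1.48 CPM in aig2abc and at 0.301 to 0.481 CPM in aig2abc pad4, against 26.4 to 55.9 CPM in Col-0, and PAD4 at 2.68 to 3.45 CPM in pad4 and 5.10 to 8.14 CPM in aig2abc pad4, against 17.1 to 35.2 CPM in Col-0. In aig2abc PAD4 stood at 42.5 to 56.7 CPM, above every Col-0 library, and in pad4 AIG2C stood at 33.1 to 43.9 CPM. Transcripts of AIG2A (77.2 to 109 CPM) and AIG2B (575 to 838 CPM) were still counted in aig2abc. Wild-type ranges were 62.6 to 73.2 CPM for AIG2A and 500 to 963 CPM for AIG2B. The aig2abc pad4 libraries differed from aig2abc at both genes, with AIG2A higher (209 to 227 CPM) and AIG2B lower (84.5 to 353 CPM). As the labels do not describe the lesions of AIG2A and AIG2B, these 3′ counts do not check them. Whether aig2abc and aig2abc pad4 carry the same lesions was not tested, and comparisons with and without PAD4 take them as the same. Replicates also differed from each other along a shared pattern over 14950 genes other than those described here, which held 52.4% of the variance within genotypes among the 9 libraries outside aig2abc. A library score on this pattern was 59.6, -12.3 and -16.1 in Col-0 replicates 1 to 3. The pad4 replicates scored 28.5, -16 and -36.7, those of aig2abc pad4 33.2, 23 and -63.3, and those of aig2abc -97.3, -107 and -84.6. The last lie outside the range of the other 9, so genotype and this score cannot be fully told apart in that mutant. Markers of root cells, which a shoot should lack, were nearly absent, with at most 1 count in all over 6 genes in any library.

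The photosystem and antenna genes together took a large share of every library, and this share was lowest in aig2abc. They held 21.8, 24.8 and 22.4% of all counts in the Col-0 libraries and 12.6, 13.1 and 12.1% in aig2abc, with no overlap. The pad4 libraries had 24.2, 25.2 and 22.6%, and the aig2abc pad4 libraries 19.1, 19.7 and 19.3%, so that aig2abc pad4 lay below pad4 and Col-0 and above aig2abc. In bulk RNA, fewer cells of a type and less RNA per cell cannot be told apart, and these shares are of the RNA counted, not of cells.

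The shift was unequal among the 4 gene groups. LHCB genes took 9.60, 11.3 and 9.80% of counts in Col-0 and 5.61, 5.67 and 5.60% in aig2abc. Photosystem II subunits took 4.29, 4.24 and 3.92% in Col-0 and 1.80, 1.70 and 1.82% in aig2abc. Photosystem I subunits took 5.66, 6.13 and 5.65% in Col-0 and 3.08, 3.71 and 3.04% in aig2abc. LHCA genes differed least, at 2.29, 3.20 and 2.97% against 2.08, 1.99 and 1.67%. In none of the 4 groups did the aig2abc libraries overlap with Col-0. The ratio of summed photosystem I to photosystem II subunit counts accordingly stood at 1.67 to 2.18 in aig2abc and 1.32 to 1.45 in Col-0, and that of LHCB to photosystem II subunit counts at 3.09 to 3.33 and 2.24 to 2.66. These sums were described and not tested.

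**Figure D1:**
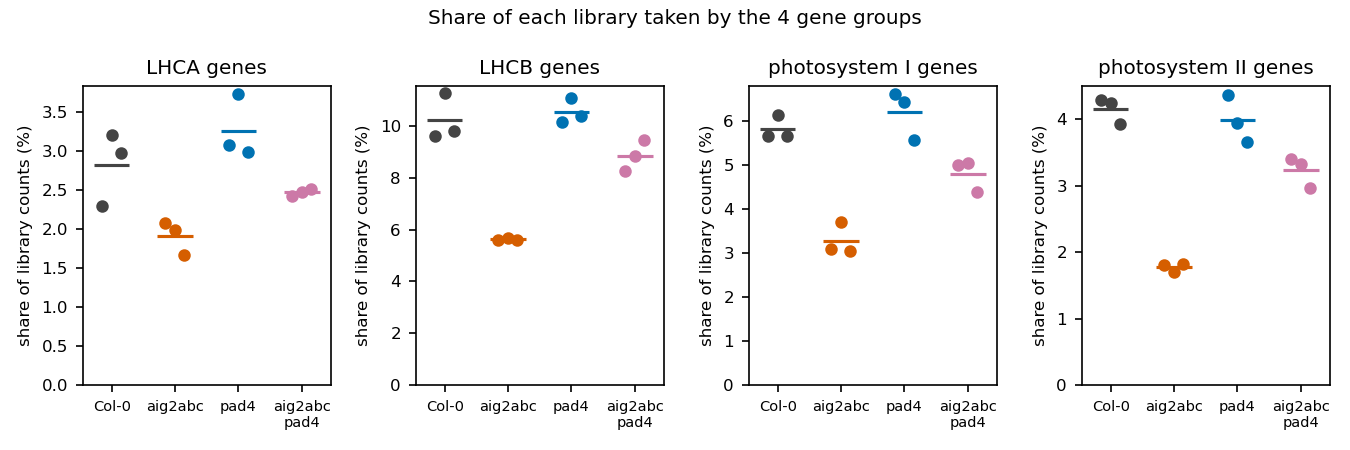
Share of all counts of a library, in percent, taken by the LHCA, LHCB, photosystem I and photosystem II genes, with a point for each library and a bar for the mean of 3. In each panel the 3 aig2abc points lie below all Col-0 points, and those of aig2abc pad4 lie between aig2abc and pad4.

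Most of these genes were lower in aig2abc than in Col-0, while a few with near-identical function were not. Of the 42 tested, 26 fell and 2 rose in edgeR's quasi-likelihood test at a Benjamini-Hochberg adjusted p below 0.05, and 14 were not called. That is 66.7% of the genes called, where 37.5% of all 15082 genes tested were called, 19.5% lower and 18% higher. The median log2 fold change (a difference of 1 is a 2-fold change) was -1.16, against -0.09 over all genes tested. In 26 genes every aig2abc library lay below every Col-0 library, and in 3 every aig2abc library lay above, where 28.1 and 23.7% of all genes did so. Of the 26 lower calls, 23 held whichever of the 12 libraries was left out. The other 3 were lost in some omissions, LHCA4 without replicate 2 or 3 of Col-0 or of aig2abc, LHCB7 without Col-0 replicate 2 or 3 or any aig2abc library, and PSAK without Col-0 replicate 1, any aig2abc library or pad4 replicate 2. The highest adjusted p of these genes over the omissions was 0.103, 0.125 and 0.464 respectively. Both higher calls were lost without aig2abc replicate 1 or 2 and without Col-0 replicate 1 or 3, with adjusted p up to 0.127.

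**Figure D2:**
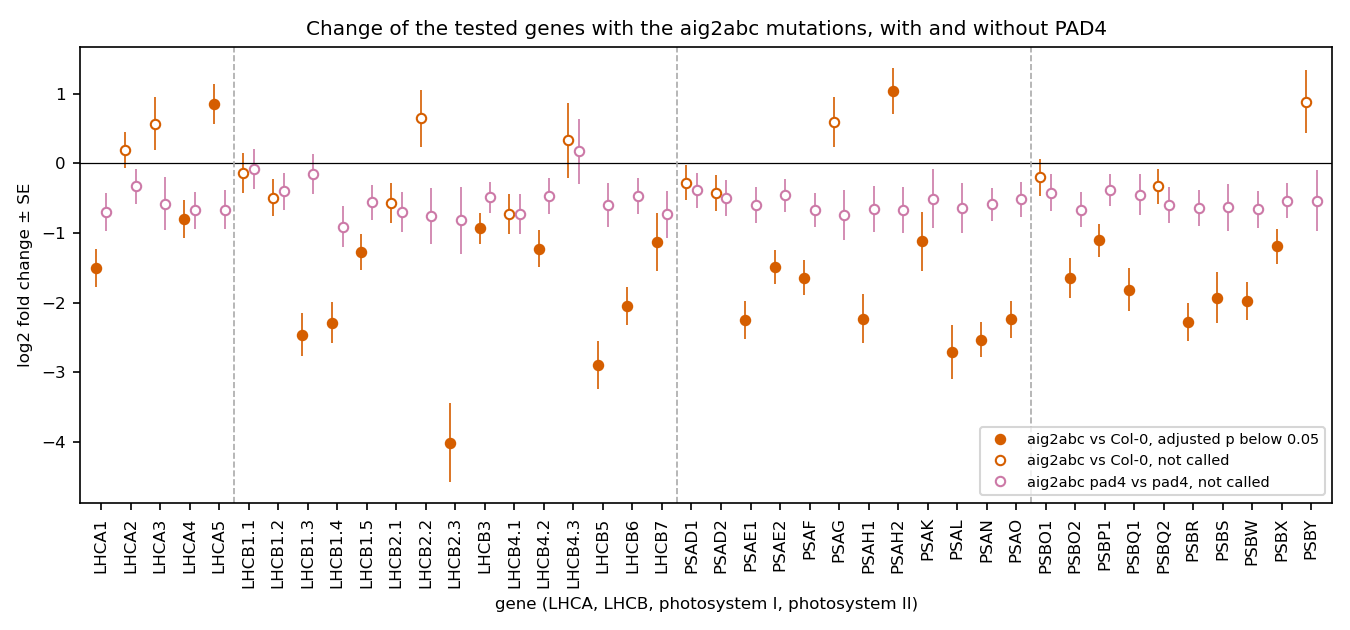
Log2 fold change with its standard error for each of the 42 tested genes, for aig2abc against Col-0 and for aig2abc pad4 against pad4, with filled points where the adjusted p was below 0.05. Changes in aig2abc run from -4.01 in LHCB2.3 to 1.04 in PSAH2, whereas those in aig2abc pad4 stay between -0.91 and 0.18 and none is called.

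Among the LHCA genes, which form the antenna belt along the outer side of photosystem I, 2 of 5 tested fell and 1 rose. LHCA1 (AT3G54890) stood at 10490, 16480 and 12230 CPM in Col-0 and at 4924, 5097 and 3799 CPM in aig2abc, all lower, and fell by 1.50 ± 0.28 on the log2 scale (SE; edgeR adjusted p = 0.000803). LHCA4 (AT3G47470), its partner in a dimer, stood at 6421, 9444 and 8591 CPM and at 5450, 4290 and 4343 CPM, and fell by 0.80 ± 0.27 (adjusted p = 0.0289). The other dimer, LHCA2 and LHCA3, had log2 fold changes of 0.20 ± 0.25 and 0.57 ± 0.38 and was not called. LHCA5 (AT1G45474), which like LHCA6 is a minor protein of the link to the NADH dehydrogenase-like complex, went the other way. It stood at 202.7, 331.4 and 283.1 CPM in Col-0 and at 466.4, 625.3 and 394.3 CPM in aig2abc, without overlap, and rose by 0.86 ± 0.29 (adjusted p = 0.026).

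Among the LHCB genes, 9 of 15 fell and none rose. LHCB1 and LHCB2 proteins build the mobile trimers of the photosystem II antenna, LHCB3 is found in the bound trimers, and LHCB4, LHCB5 and LHCB6 are the monomeric proteins that connect trimers to the core. LHCB5 (AT4G10340, CP26) stood at 3021, 1781 and 1860 CPM in Col-0 and at 341.4, 264.4 and 285.3 CPM in aig2abc, far below, and fell by 2.90 ± 0.34 (adjusted p = 2.72e-05). LHCB6 (AT1G15820, CP24) stood at 8190, 7892 and 5832 CPM and at 1827, 1864 and 1607 CPM, and fell by 2.05 ± 0.27 (adjusted p = 7.61e-05). The trimer gene LHCB1.4 (AT2G34430) stood at 17610, 21630 and 16480 CPM and at 4247, 3609 and 3569 CPM, and fell by 2.29 ± 0.30 (adjusted p = 7.43e-05). All 3 genes kept their call whichever library was left out. LHCB3 fell by 0.93 ± 0.23, and of the LHCB4 genes for CP29 only LHCB4.2 was called, falling by 1.22 ± 0.27, where LHCB4.1 had -0.73 ± 0.29 (adjusted p = 0.0539). LHCB4.3, at 2.20 to 11.0 CPM in Col-0, and LHCB7, at 1.93 to 6.67 CPM in aig2abc, were rare, and LHCB7 rested on 18, 1 and 16 counts in aig2abc.

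Among the photosystem I subunits, 8 of 12 fell and 1 rose. PSAN (AT5G64040), a lumenal subunit at the plastocyanin side, stood at 2534, 2195 and 2049 CPM in Col-0 and at 427.1, 357 and 383.7 CPM in aig2abc, and fell by 2.54 ± 0.25 (adjusted p = 4.37e-06), the smallest p of the set. PSAO (AT1G08380), which with PSAL and PSAH forms the side where mobile antenna docks, stood at 16330, 24310 and 18880 CPM and at 4536, 4184 and 3908 CPM, and fell by 2.24 ± 0.27 (adjusted p = 3e-05). PSAE1 (AT4G28750), a stromal subunit at the ferredoxin side, stood at 4229, 3452 and 2991 CPM and at 730.3, 737.2 and 773.1 CPM, and fell by 2.25 ± 0.27 (adjusted p = 3.38e-05). The replicates of aig2abc lay close together in all 3 genes and far from Col-0. PSAL fell by 2.71 ± 0.39 and PSAF, which helps dock plastocyanin, by 1.64 ± 0.25. The stromal subunits PSAD1 and PSAD2 had -0.28 ± 0.25 and -0.43 ± 0.26, and the membrane subunit PSAG had 0.60 ± 0.36, none of them called, whereas its relative PSAK fell by 1.12 ± 0.43 (adjusted p = 0.048).

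Among the photosystem II subunits, 7 of 10 fell and none rose. PSBR (AT1G79040), a small protein at the lumenal side, stood at 21770, 17540 and 14410 CPM in Col-0 and at 3736, 3350 and 3957 CPM in aig2abc, and fell by 2.28 ± 0.27 (adjusted p = 3e-05). PSBW (AT2G30570), a small membrane subunit that stabilises the supercomplex with the antenna, stood at 4076, 3335 and 2718 CPM and at 850.1, 893.5 and 833.8 CPM, and fell by 1.98 ± 0.27 (adjusted p = 0.00011). PSBQ1 (AT4G21280), among the extrinsic proteins that shield the water-splitting cluster, stood at 1019, 662.2 and 527.3 CPM and at 206.1, 225.8 and 197.9 CPM, and fell by 1.81 ± 0.31 (adjusted p = 0.000484). The 3 genes did not overlap between genotypes. Of the other extrinsic proteins, PSBP1 fell by 1.11 ± 0.24 and PSBO2 by 1.65 ± 0.29, whereas PSBO1 and PSBQ2 had -0.20 ± 0.26 and -0.33 ± 0.26 and were not called. PSBS, the sensor protein for the dissipation of excess light energy, fell by 1.93 ± 0.37 from 112.6 to 241.1 CPM in Col-0 to 30.8 to 63.7 CPM. The small membrane subunit PSBX fell by 1.19 ± 0.25, and PSBY had 0.89 ± 0.45 and was not called, although its 3 aig2abc libraries, at 95.7 to 135 CPM, all lay above Col-0, at 35.5 to 82.7 CPM.

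**Figure D3:**
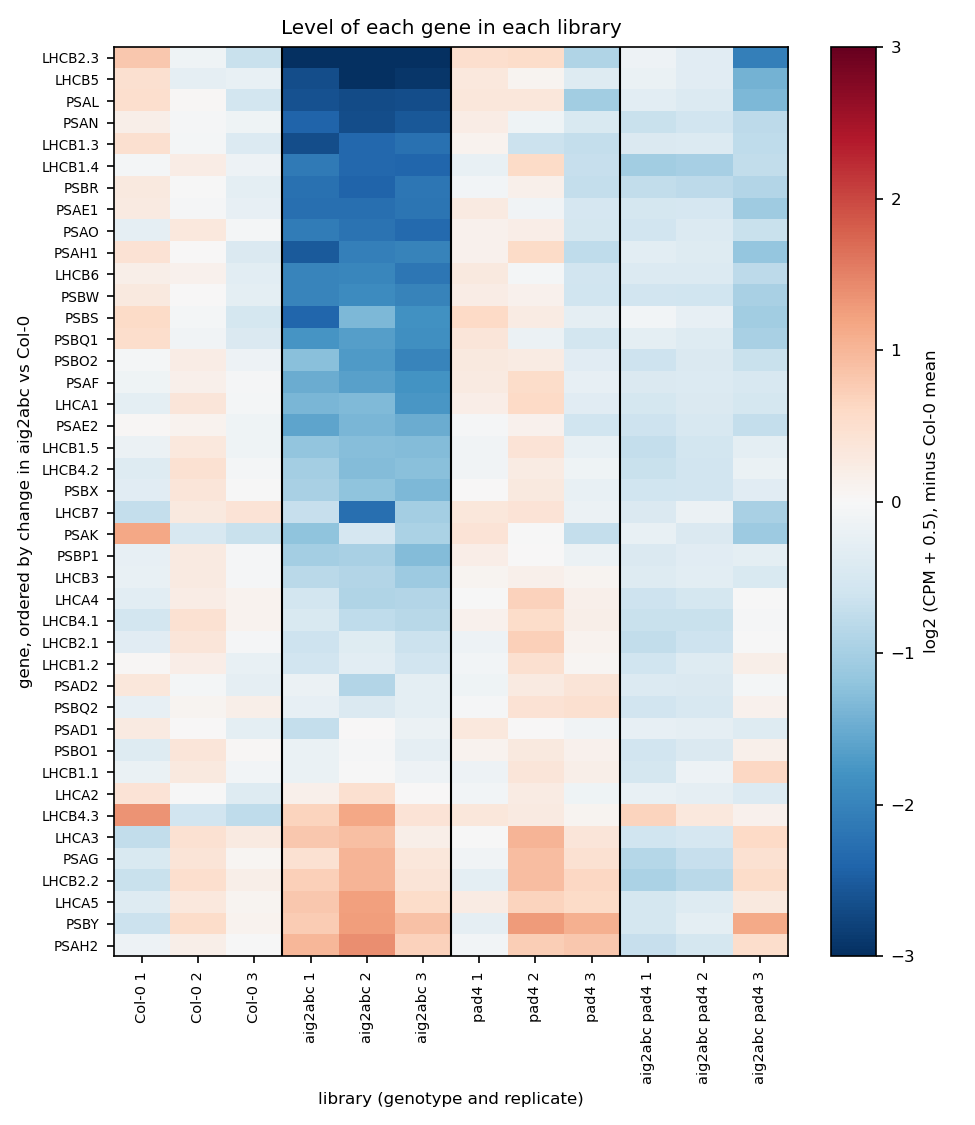
Level of the 42 tested genes in each of the 12 libraries as log2 (CPM + 0.5) minus the Col-0 mean, with genes ordered by their change in aig2abc and values beyond 3 drawn at 3. The 3 aig2abc columns are blue from LHCB2.3 at -4.01 down to PSBP1 at -1.11 and red at the foot of the map, and the columns of pad4 replicate 3 and aig2abc pad4 replicate 3 show a paler form of this order.

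Many of these proteins are encoded by several gene copies, and the copies of a protein did not move together in aig2abc. The log2 ratio of copies within a library, in which library size and any scaling cancel, was therefore compared between genotypes for 12 pairs and described without a test. In 11 pairs the 3 aig2abc libraries did not overlap with Col-0, and in PSAD2 with PSAD1 they did. Of all single genes tested, 28.1% lay lower and 23.7% higher without overlap. No such share was computed for ratios of other genes. For LHCB2.3 over LHCB2.2 the ratio was -2.28, -4.40 and -4.61 in Col-0 and -9.07, -8.44 and -7.60 in aig2abc, a shift of -4.61 in the mean. For PSAH1 over PSAH2 it was -1.98, -2.71 and -2.95 in Col-0 and -6.06, -5.99 and -5.25 in aig2abc, a shift of -3.22. For LHCB1.3 over LHCB1.1 it was -1.20, -2.21 and -2.19 in Col-0 and -4.33, -4.22 and -3.94 in aig2abc, a shift of -2.30. In these 3 pairs every aig2abc ratio lay below every ratio of any other genotype. The same held for PSBO2 over PSBO1, with a shift of -1.48, and PSBQ1 over PSBQ2, with -1.44, whereas PSAE2 over PSAE1 moved by 0.75, since both fell and PSAE1 fell more.

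**Figure D4:**
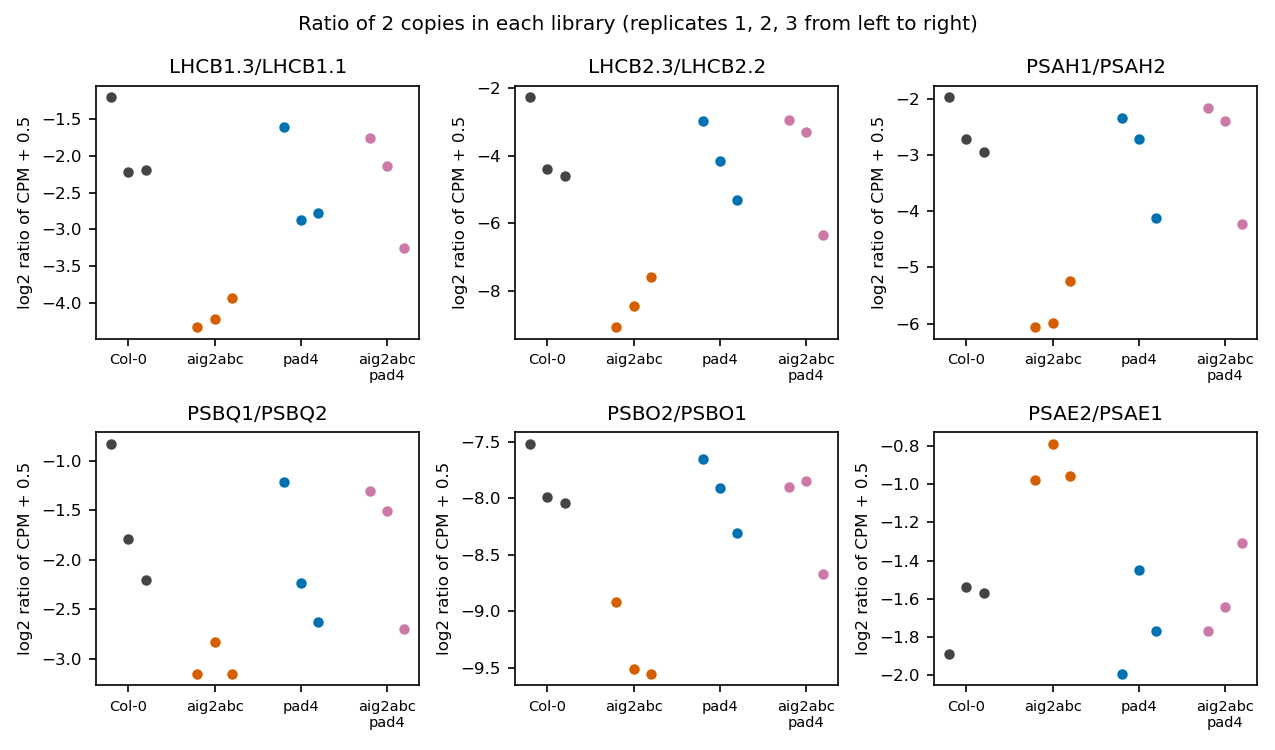
Log2 ratio of the CPM of gene copies, each with 0.5 added, in every library for 6 pairs, with replicates 1, 2 and 3 of a genotype from left to right. The aig2abc points lie apart from Col-0 in all 6 panels, by -4.61 for LHCB2.3 over LHCB2.2 and by -3.22 for PSAH1 over PSAH2, and in 5 panels the points of pad4 replicate 3 and aig2abc pad4 replicate 3 are the lowest of their genotypes or close to it.

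Behind the largest divergence was LHCB2.3 (AT3G27690), at chr3:10255906-10257489 of TAIR10.1 on the plus strand, which stood at 603.4, 315.4 and 215.6 CPM in Col-0 and at 13.7, 27.0 and 30.9 CPM in aig2abc. It fell by 4.01 ± 0.57 on the log2 scale, or 16.1-fold (edgeR adjusted p = 0.000127), from 37, 14 and 94 counts in aig2abc. LHCB2.2 (AT2G05070), at chr2:1799234-1800472 on the minus strand, stood at 2930, 6663 and 5266 CPM and at 7637, 9547 and 6083 CPM, with overlapping groups and a log2 fold change of 0.65 ± 0.41 that was not called. PSAH1 (AT3G16140), at chr3:5467987-5469594 on the minus strand, fell by 2.23 ± 0.35 (adjusted p = 0.000287), from 657.5, 493.2 and 363.9 CPM to 84.5, 117.7 and 121.5 CPM. PSAH2 (AT1G52230), at chr1:19454798-19455668 on the plus strand, rose by 1.04 ± 0.33 (adjusted p = 0.0212), from 2593, 3219 and 2823 CPM to 5683, 7507 and 4625 CPM, so the copies of this docking subunit changed in opposite directions. LHCB1.3 (AT1G29930), at chr1:10477885-10479114 on the plus strand, fell by 2.46 ± 0.31 (adjusted p = 4.45e-05), from 8409, 5798 and 4535 CPM to 948.7, 1175 and 1281 CPM. Its neighbour LHCB1.1 (AT1G29920), at chr1:10474656-10475969 on the minus strand, starts 1915 bases away in the opposite orientation, and stood at 19320, 26780 and 20670 CPM and at 19070, 21890 and 19700 CPM, with -0.14 ± 0.29 and no call.

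The 250 bases upstream of the annotated transcript start of these 6 genes are shown because the members of each pair encode near-identical proteins and differ in response. The sequences were read from the TAIR10.1 genome by its RefSeq annotation, 5′ to 3′ on the strand of the gene, at chr3:10255656-10255905 for LHCB2.3, chr2:1800473-1800722 for LHCB2.2, chr3:5469595-5469844 for PSAH1, chr1:19454548-19454797 for PSAH2, chr1:10477635-10477884 for LHCB1.3 and chr1:10475970-10476219 for LHCB1.1. Capitals mark matches, on either strand, to any of 5 motifs known from light- and clock-regulated promoters, which are the CCAAT box (CCAAT), the G-box (CACGTG), the I-box core (GATAAG), the CCA1-binding site (AAAAATCT) and the evening element (AAAATATCT). None of these motifs contains another.
LHCB2.3: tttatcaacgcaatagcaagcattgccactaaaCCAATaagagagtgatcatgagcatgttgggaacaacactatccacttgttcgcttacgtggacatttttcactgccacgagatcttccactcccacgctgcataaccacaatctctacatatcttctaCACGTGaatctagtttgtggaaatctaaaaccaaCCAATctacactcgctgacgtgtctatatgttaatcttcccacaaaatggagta
LHCB2.2: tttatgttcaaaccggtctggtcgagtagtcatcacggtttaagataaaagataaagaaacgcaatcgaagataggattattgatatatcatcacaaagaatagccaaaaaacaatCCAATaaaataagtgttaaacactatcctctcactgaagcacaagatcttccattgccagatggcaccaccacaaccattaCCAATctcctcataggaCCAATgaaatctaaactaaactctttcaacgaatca
PSAH1: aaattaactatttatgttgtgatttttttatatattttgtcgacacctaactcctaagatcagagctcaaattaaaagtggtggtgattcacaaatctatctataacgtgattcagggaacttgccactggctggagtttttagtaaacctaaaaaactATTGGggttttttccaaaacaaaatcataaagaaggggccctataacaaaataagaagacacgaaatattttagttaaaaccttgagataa
PSAH2: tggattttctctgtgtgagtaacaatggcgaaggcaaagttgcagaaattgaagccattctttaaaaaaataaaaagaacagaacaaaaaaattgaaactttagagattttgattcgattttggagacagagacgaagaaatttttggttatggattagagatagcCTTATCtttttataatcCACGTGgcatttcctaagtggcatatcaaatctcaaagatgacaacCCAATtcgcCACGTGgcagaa
LHCB1.3: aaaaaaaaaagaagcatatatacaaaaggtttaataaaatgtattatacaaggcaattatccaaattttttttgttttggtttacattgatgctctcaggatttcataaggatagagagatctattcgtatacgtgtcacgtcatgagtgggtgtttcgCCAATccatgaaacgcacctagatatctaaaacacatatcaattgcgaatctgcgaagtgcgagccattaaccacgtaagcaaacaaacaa
LHCB1.1: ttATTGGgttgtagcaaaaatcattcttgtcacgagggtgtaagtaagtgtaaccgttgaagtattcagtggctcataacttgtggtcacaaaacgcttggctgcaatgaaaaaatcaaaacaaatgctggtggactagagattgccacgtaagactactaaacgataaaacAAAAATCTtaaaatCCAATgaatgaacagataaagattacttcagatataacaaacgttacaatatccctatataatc

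The paired promoters held different motifs. LHCB2.3 had a G-box starting at base -88 from the transcript start and CCAAT boxes at -217 and -54, where LHCB2.2 had CCAAT boxes at -134, -53 and -36 and no G-box. PSAH1 had only a CCAAT box on the other strand at -91, where PSAH2 had G-boxes at -67 and -12, an I-box core at -84 and a CCAAT box at -21. LHCB1.3 had a CCAAT box at -91, where LHCB1.1 had CCAAT boxes at -248 and -64 and a CCA1-binding site at -78. No motif was present in all 3 genes that fell and absent from their 3 partners.

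Over the whole set, the CCAAT box was the most frequent of these motifs. It was found in 28 of 43 promoters (65.1%), against 46% of 27437 nuclear protein-coding genes, and in 14 of 15 LHCB promoters (93.3%) but 2 of 10 photosystem II subunit promoters (20%). The G-box was in 9 of 43 (20.9%), against 6.49% of all, and the I-box core in 9 of 43 (20.9%), against 12.3%. The CCA1-binding site was in 5 of 43 (11.6%), against 6.69%, and the evening element in 1 of 43 (2.33%), against 2.36%. Within the set, the CCAAT box was in 15 of the 26 genes that fell in aig2abc (57.7%) and 12 of the 16 tested genes that did not (75%), and the G-box in 23.1% and 18.8%. These are descriptions of letters in a window. Transcript length and the change in aig2abc had a Spearman correlation of -0.04 over the 42 genes.

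Copies that are alike in sequence can share reads, and how the authors' counting treated such reads is not given in the sources used here, so the split of LHCB1.1, LHCB1.2 and LHCB1.3 is uncertain. The coding sequence of LHCB1.3 was 96.1% identical to that of LHCB1.1 and 96.4% to that of LHCB1.2. Over the last 300 bases of the transcripts, where a 3′ assay reads, LHCB1.3 was 64.7% identical to LHCB1.1 but 92.5% to LHCB1.2 over 187 aligned bases. LHCB2.3 and LHCB2.2 were 84.7% identical in the coding sequence and 59.8% over the last 300 bases, with a longest shared run of 38 bases, and PSAH1 and PSAH2 were 87% and 59.3% identical, with a run of 30. LHCB1.2, which lies 1153 bases from LHCB1.1, stood at 9425, 10530 and 7810 CPM in Col-0 and at 6178, 7428 and 6120 CPM in aig2abc, all lower, but its -0.49 ± 0.26 was not called. The closely spaced copies LHCB1.5 and LHCB1.4, 1038 bases apart on chromosome 2, both fell, LHCB1.5 by 1.27 ± 0.25.

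Without PAD4, the aig2abc mutations went with a smaller and more even difference in these genes. In aig2abc pad4 against pad4, 41 of the 42 genes had a negative log2 fold change, with a median of -0.59 against -0.02 over all genes tested, but edgeR's quasi-likelihood test called 0 of them at an adjusted p below 0.05. In this comparison 4% of all genes were called, 0.663% lower and 3.34% higher. At an unadjusted p below 0.05, 17 genes were lower, where 5.59% of all genes were, and in 17 genes all aig2abc pad4 libraries lay below all pad4 libraries, where 8.18% of all genes did so. limma-voom called 0, and DESeq2 called 2 of the 42, LHCB1.4 and PSAF, where it called 5.72% of all genes. LHCB1.4 had the smallest p. It stood at 15880, 27300 and 11420 CPM in pad4 and at 8951, 9177 and 10980 CPM in aig2abc pad4, without overlap, with a log2 fold change of -0.91 ± 0.29 (edgeR adjusted p = 0.104). PSAF stood at 13240, 16140 and 9193 CPM and at 8146, 8220 and 7861 CPM, also without overlap, with -0.67 ± 0.25 (adjusted p = 0.18). PSBO2 had -0.67 ± 0.25 and LHCA1 -0.70 ± 0.27, likewise without overlap.

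This comparison depended on the third library of each genotype. Without pad4 replicate 3, 1 gene was called, where 3.16% of all genes were. It was LHCB1.4, which fell by 1.15 (edgeR adjusted p = 0.0281). Without aig2abc pad4 replicate 3, 4 were called, where 5.89% of all genes were. These were genes that had not fallen in aig2abc, namely LHCB2.2 at -1.39, PSAG at -1.26, PSAH2 at -1.16 and LHCA5 at -0.96. With the library score as a covariate, 21 of the 42 were called, all lower, with LHCB2.3 at -1.08, LHCB1.4 at -0.90, LHCB2.2 at -0.78, PSAG at -0.76 and LHCB5 at -0.72 among them, where 11.4% of all genes were called. The median was -0.60 in that fit, close to that without the covariate. The score was itself derived from these libraries and those of Col-0, as the main pattern of their spread within genotypes over other genes. Fitting it can therefore lower the standard errors. They were 0.242 for LHCB2.3 and 0.235 for LHCB1.4 with the covariate, against 0.478 and 0.289 without it. The log2 ratio of copies differed between the means of aig2abc pad4 and pad4 by -0.67 to 0.27 over the 12 pairs. Only LHCB4.2 over LHCB4.1 did not overlap between these genotypes. Replicates spread widely in some pairs, with a standard deviation in aig2abc pad4 of 1.88 for LHCB2.3 over LHCB2.2 and 1.12 for PSAH1 over PSAH2. Shifts smaller than such a spread would be missed.

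The difference between these 2 responses was tested directly as an interaction, (aig2abc pad4 minus pad4) minus (aig2abc minus Col-0), in edgeR's quasi-likelihood fit. It was called in 16 of the 42 genes, 14 positive and 2 negative, or 38.1%, where 14.8% of all genes were called, 8.53% positive and 6.23% negative. The positive ones were 5 LHCB genes, 6 photosystem I genes and 3 photosystem II genes, and the negative ones LHCA5 and PSAH2, which had risen in aig2abc. The median over the 42 genes was 0.68, against 0.13 over all genes tested. PSAN had the smallest p. Its levels of 2637, 2053 and 1645 CPM in pad4 and 1411, 1501 and 1306 CPM in aig2abc pad4 gave -0.59 ± 0.24, against -2.54 ± 0.25 in aig2abc, an interaction of 1.95 ± 0.34 (adjusted p = 0.00909). LHCB1.3, at 6553, 3849 and 3663 CPM in pad4 and 4512, 4558 and 3561 CPM in aig2abc pad4, had an interaction of 2.31 ± 0.41 (adjusted p = 0.011). LHCB5, at 2666, 2298 and 1651 CPM and 1890, 1693 and 810.1 CPM, had 2.31 ± 0.46 (adjusted p = 0.0134). The groups overlapped in LHCB1.3 and LHCB5 and not in PSAN. PSBR led the photosystem II genes with 1.65 ± 0.37 (adjusted p = 0.0167), and LHCB2.3 had the largest value, 3.20 ± 0.72 (adjusted p = 0.0167). PSAH2 had -1.72 ± 0.47 (adjusted p = 0.0281) and LHCA5 -1.52 ± 0.40 (adjusted p = 0.0255).

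How many of these genes passed this test depended on single libraries, and so did the share of all genes called. That share was 2.72% without aig2abc pad4 replicate 2, 2.93% without pad4 replicate 3 and 28.9% without aig2abc pad4 replicate 3. Of the genes described here, 10 were called without Col-0 replicate 1 or aig2abc replicate 3, and 9 without aig2abc replicate 1 or aig2abc pad4 replicate 1. The number was 8 without aig2abc replicate 2, pad4 replicate 3 or aig2abc pad4 replicate 2, and 22 without aig2abc pad4 replicate 3. The call held in all 12 omissions for 8 genes, which were LHCB1.3, LHCB2.3, LHCB5, LHCB6, PSAE1, PSAN, PSAO and PSBR. PSAH2 and LHCA5 lost it in 7 omissions each. With the library score as a covariate, 3 were called, PSAO at 1.65, PSAN at 1.53 and LHCB1.3 at 1.46, where 0.57% of all genes were.

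Loss of PAD4 alone left no called difference in these genes. In pad4 against Col-0, edgeR, DESeq2 and limma-voom each called 0 of the 42, where 0.69% of all genes were called by edgeR, 0.683% lower and 0.00663% higher, and 0 had an unadjusted p below 0.05. All 42 overlapped between the genotypes, and the log2 fold changes ran from -0.41 in LHCB1.3 to 0.76 in PSBY with a median of 0.06. The 95% intervals of these ends were -0.98 to 0.15 and -0.10 to 1.62, and differences within such intervals were not detectable at this depth and replication.

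The loss of PAD4 from aig2abc went with higher levels of most of the genes that had fallen. In aig2abc pad4 against aig2abc, 20 of the 42 rose and 2 fell, or 52.4%, where 24.3% of all genes were called, 12.8% higher and 11.5% lower, and the median was 0.69 against 0.08 over all genes. These comparisons share libraries with those above and are not separate evidence. The 20 were LHCA1, 6 LHCB, 7 photosystem I and 6 photosystem II genes, and 15 of the calls held in every omission. LHCB5 rose by 2.30 ± 0.33 (adjusted p = 0.00117), PSAN by 1.85 ± 0.25 (adjusted p = 0.00107) and PSBR by 1.46 ± 0.27 (adjusted p = 0.00269). LHCB2.3 stood at 312.2, 271.4 and 82.6 CPM in aig2abc pad4, above every aig2abc library, and rose by 3.25 ± 0.55 (adjusted p = 0.00203). PSAH2 and LHCA5 fell, by 1.18 ± 0.33 (adjusted p = 0.0188) and 1.04 ± 0.29 (adjusted p = 0.0168), and both calls were lost without aig2abc replicate 1 or 2 or aig2abc pad4 replicate 1 or 2. With the library score as a covariate, 8 of the 42 were called, all higher, where 2.15% of all genes were called.

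Set against the wild type, aig2abc pad4 stayed slightly lower without calls. Of the 42 genes, 39 had a negative log2 fold change, with a median of -0.49 against -0.01 over all genes, and edgeR called 0, where 1.74% of all genes were called, 0.325% lower and 1.42% higher. At an unadjusted p below 0.05, 9 were lower, where 5.76% of all genes were. limma-voom called 0, and DESeq2 called 2, LHCB1.4 and PSBR, where it called 2.93% of all genes. LHCB1.4 had -0.94 ± 0.29 (edgeR adjusted p = 0.146) and PSBR, at 10510, 10240 and 9617 CPM, had -0.82 ± 0.26 (adjusted p = 0.163). Neither gene overlapped with Col-0. With the library score as a covariate, 5 were called, all lower, and these were LHCB1.4, PSAE1, PSAN, PSBR and PSBW, where 6.28% of all genes were called.

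The order of genes seen in aig2abc was also found among replicates of the other mutants. For each pad4 and aig2abc pad4 library, the log2 deviation of the 42 genes from the mean of its genotype was set against their change in aig2abc against Col-0, a contrast that uses none of those libraries. Across genes, Pearson's r was -0.79, 0.11 and 0.86 in pad4 replicates 1, 2 and 3 and -0.76, -0.84 and 0.81 in aig2abc pad4 replicates 1, 2 and 3. Genes are not independent replicates, the deviations of a gene within a genotype sum to 0, and the values are descriptions. The libraries with high r were those with the lowest scores of their genotypes. In aig2abc pad4 replicate 3, LHCB2.3 was at 82.6 CPM and PSAL, which stabilises the docking side of photosystem I, at 1405 CPM, against 271.4 to 312.2 and 2666 to 2856 CPM in its replicates. In the same library PSAH2 was at 4115 CPM and LHCB2.2 at 6817 CPM, against 1763 to 1974 and 2413 to 2670 CPM. Thus the copies diverged among libraries of the same genotype in the same sense as in aig2abc, though less. The aig2abc scores, -107 to -84.6, lie outside the range of the other genotypes, -63.3 to 59.6. A fit with the score as a covariate therefore cannot separate genotype from this library pattern, whose part in the aig2abc result was not tested. That fit left 25 of the 42 genes called in aig2abc against Col-0, all lower, 22 of them among the 28 called without it, where 9.17% of all genes were called, and both higher calls were lost, with LHCA5 at -0.004 and PSAH2 at -0.08.

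**Figure D5:**
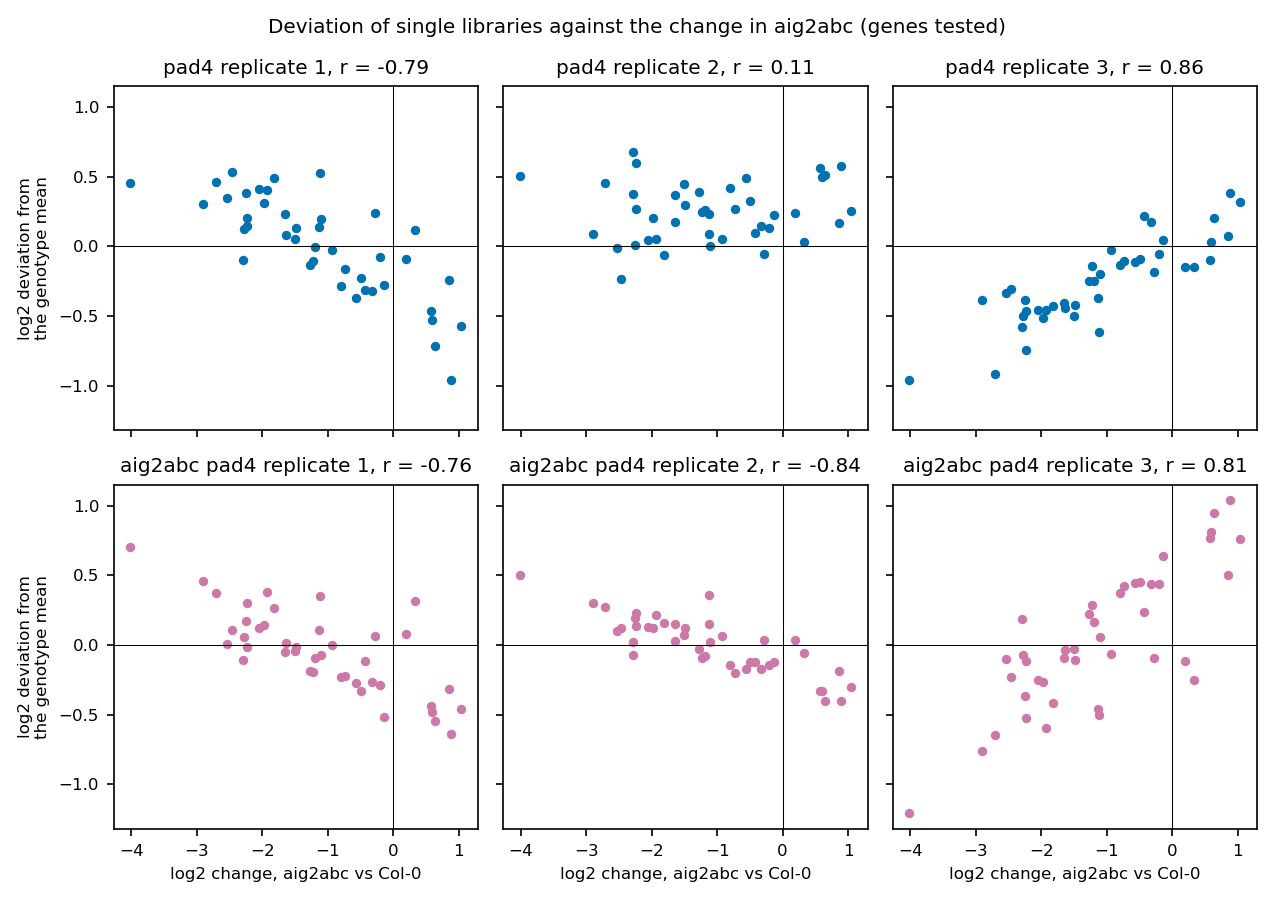
Log2 deviation of each of the 42 genes from the mean of its genotype in single pad4 and aig2abc pad4 libraries (vertical axis) against the log2 fold change in aig2abc against Col-0 (horizontal axis), with a point for each gene. The points rise in the third library of both genotypes, with r of 0.86 and 0.81, and fall in the first, with r of -0.79 and -0.76.

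Other genes of photosynthesis were taken from 6 lists chosen by function, and in aig2abc against Col-0, where 37.5% of all genes were called, 19.5% lower and 18% higher, each list held more lower than higher calls. Of 14 genes of thylakoid electron transport and ATP synthase, 7 fell and 1 rose, with a median of -0.67. PETC, the Rieske subunit of the cytochrome b6f complex, fell by 2.32 ± 0.34, PGRL1A, a protein of cyclic electron flow, by 1.80 ± 0.27, PDE334, an ATP synthase subunit, by 2.36 ± 0.44 and FNR1, a ferredoxin-NADP reductase, by 1.45 ± 0.30, whereas PETM, a small cytochrome b6f subunit, rose by 1.20 ± 0.41. Of 8 light-harvesting-like stress proteins, 6 fell and 1 rose, with a median of -2.18. OHP1 fell by 2.46 ± 0.28, LIL3:1 by 2.50 ± 0.29, OHP2 by 2.62 ± 0.40 and SEP1 by 2.87 ± 0.48, and ELIP1, a protein induced by strong light, rose by 0.81 ± 0.27.

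The lists for making and handling pigment and antenna differed in their medians. Of 15 genes of chlorophyll synthesis, 7 fell and none rose, with a median of -0.63, among them CHLD and CHLI2, subunits of magnesium chelatase, by 2.15 ± 0.40 and 2.25 ± 0.51, CRD1, the ring cyclase, by 1.35 ± 0.24 and CHLP, which makes the phytyl tail, by 1.67 ± 0.34. Of 14 genes of antenna insertion, kinases and photosystem II repair, 8 fell and 1 rose, with a median of -1.08. PSB28 and PSB27, assembly factors of photosystem II, fell by 3.53 ± 0.48 and 2.83 ± 0.47, SRP54CP, which brings antenna proteins to the thylakoid, by 2.06 ± 0.34 and FTSH2, the repair protease, by 2.27 ± 0.42, while LTD, another antenna transport factor, rose by 1.07 ± 0.27. Of 9 genes of chlorophyll breakdown, 4 fell and 1 rose, but the median was only -0.15, with 5 values negative and 4 positive. The genes that fell were ACD2 (2.05 ± 0.30), CLH2 (1.98 ± 0.54), NOL (1.58 ± 0.45) and PAO (1.61 ± 0.48), and SGR1, which removes magnesium from chlorophyll, rose by 1.02 ± 0.29.

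Of 14 transcriptional regulators of photosynthesis genes, 6 fell and 2 rose in aig2abc, with a median of -0.80. GLK1, an activator of antenna and chlorophyll genes, stood at 41.3, 42.0 and 38.3 CPM in Col-0 and at 10.8, 19.3 and 12.2 CPM in aig2abc, without overlap, and fell by 1.65 ± 0.35 (adjusted p = 0.00196). GNC, a GATA factor of greening, fell by 1.89 ± 0.29, the clock factor CCA1, which binds an LHCB1 promoter, by 1.27 ± 0.29, and PIF5, a phytochrome-interacting factor, by 2.42 ± 0.56. LHY, the close relative of CCA1, rose by 1.56 ± 0.41, so these clock factors changed in opposite directions. GLK1 stood at 42.9, 61.4 and 27.0 CPM in pad4 and at 37.5, 31.2 and 20.2 CPM in aig2abc pad4, with overlap. In aig2abc pad4 against pad4, edgeR and limma-voom called 0 and DESeq2 called 2 of the 65 genes tested in 5 of these lists. Of all genes, edgeR called 4%, limma-voom 4.31% and DESeq2 5.72%. At an unadjusted edgeR p below 0.05, 8 of the 65 were lower and 1 higher, where 5.59% of all genes were lower and 8.16% higher. In chlorophyll breakdown edgeR called 2 of 9, both higher, where 3.34% of all genes were called higher. These were SGR2, at 2.25 ± 0.60 (edgeR adjusted p = 0.041), and CLH1, at 1.50 ± 0.29 (adjusted p = 0.00418). DESeq2 called 2 of the 9 and limma-voom 1, all higher.

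Markers of leaf senescence and of some cell types also differed between genotypes. All 4 senescence markers rose in aig2abc against Col-0, where 18% of all genes were called higher. In aig2abc pad4 against pad4, 3 of 4 rose, where 3.34% of all genes were called higher. Their summed level was 21.4 to 40.3 CPM in Col-0, 94.6 to 184 CPM in aig2abc, 8.39 to 9.48 CPM in pad4 and 113 to 127 CPM in aig2abc pad4. For this sum the aig2abc pad4 libraries lay within the aig2abc range. In aig2abc pad4 against aig2abc, the log2 fold changes of the 4 markers ran from -0.61 to 1.34, and edgeR called 0. The photosystem genes held a larger share of counts in each aig2abc pad4 library than in any aig2abc library. Of 3 epidermis markers, 2 fell in aig2abc against Col-0, where 19.5% of all genes were called lower. Their summed level was 115 to 122 CPM in aig2abc and 174 to 331 CPM in the other genotypes. Vascular markers summed to 21.2 to 23.7 CPM in aig2abc and 28.9 to 47.9 CPM in Col-0, with 1 of 4 lower. Guard cell markers summed to 10.2 to 13.5 CPM in aig2abc and 11.4 to 19.0 CPM in Col-0. Of the 2 guard cell markers tested, 1 was called lower, and their log2 fold changes were -2.90 and -0.085. Of 3 tested markers of dividing cells, edgeR, DESeq2 and limma-voom called 0 in aig2abc against Col-0, and 0 had an unadjusted p below 0.05 in any of these tools. The part of senescence and cell composition in the photosystem result was not tested.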

How the data were processed

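The deposited table held whole-number counts of 3′ RNA-seq reads by gene in 12 libraries, not normalized by the authors, as the values show. TAIR10 is the build that the submitters' processing notes list, with STAR and edgeR as tools and no settings. How strand and reads shared by gene copies were handled is not stated in the sources read for this work. The column called pad4 replicate 3 here matches the pad4 genotype but no pad4 title by number, so it entered its group as an unnumbered replicate. Replicates differed by more than counting noise (chi-square per gene 3.39 to 57.7) and each was counted on its own.

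Genes passing filterByExpr by genotype, 15082 of 33331, were scaled by TMM and fitted with edgeR 4.0.16 in R 4.3.3 as 4 genotype means over all 12 libraries. The robust quasi-likelihood test was two-sided, with Benjamini-Hochberg adjustment over all genes tested, a threshold of 0.05 and no fold minimum, and the common biological coefficient of variation was 28.7%. Log2 fold changes carry standard errors, and CPM values use TMM-scaled totals. A 3′ assay counts a transcript once, so CPM was not divided by length. A floor of 3 counts stands for 0.108 CPM over the pad4 libraries and 0.479 CPM over the aig2abc libraries, and covers counting error only.

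The fit was tested on simulated counts. In the simulation of aig2abc against Col-0, with 14777 genes, 11 of 100 genes given a 2-fold change were called, as were 64 of 100 given a 4-fold change, and 7 others were called in error. In that of aig2abc pad4 against pad4, with 14799 genes, the numbers were 15, 84 and 6.

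Copy identity was computed with Biopython 1.88, and coordinates, promoters and motifs come from the TAIR10.1 genome and annotation alone, matched by locus code, since the count table holds no coordinates. The library score was the leading component of the deviations from genotype means in the 9 libraries outside aig2abc. Fits with it as a covariate used these same libraries, so the score was not measured independently of them. Alternatives were RLE size factors, TMM factors or totals excluding the members, raw totals, other filters, DESeq2 1.42.0, limma-voom from limma 3.58.1, the groups compared alone, the replicate number as a block, thinning to 584342 counts, the library score as a covariate and leaving out each library. The 43 genes, the other gene lists and the tests were chosen with earlier results of these data known. Full statistics went to up to 3 genes per group with the smallest adjusted p and to genes called against the majority, and up to 4 called genes of each other list were named, or all where 5 or fewer were called.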

Additional observations from a re-analysis of the deposited data

Results flagged for a closer look

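The effect of the aig2abc mutations differed with and without PAD4 in 16 of the 42 tested genes, by edgeR's quasi-likelihood test of the interaction at a Benjamini-Hochberg adjusted p below 0.05, with 3 libraries per genotype, where 14.8% of all genes tested were called. The values below are log2 differences, (aig2abc pad4 minus pad4) minus (aig2abc minus Col-0). Among the antenna genes they were 3.20 for LHCB2.3, 2.31 for LHCB5, 2.31 for LHCB1.3, 1.59 for LHCB6 and 1.38 for LHCB1.4, and -1.52 for LHCA5. Among the photosystem I genes they were 2.07 for PSAL, 1.95 for PSAN, 1.72 for PSAO, 1.65 for PSAE1, 1.58 for PSAH1 and 1.03 for PSAE2, and -1.72 for PSAH2. Among the photosystem II genes they were 1.65 for PSBR, 1.36 for PSBQ1 and 1.32 for PSBW. A positive value means that the gene was lowered less in the absence of PAD4. This reading takes the AIG2A, AIG2B and AIG2C lesions as the same in aig2abc and aig2abc pad4, which was not tested. The median of all genes tested was 0.13. Groups of 3 libraries were not tested for outliers. The count was 8 to 22 when single libraries were left out, where 2.72 to 28.9% of all genes were called.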

How the results depend on the processing

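In aig2abc against Col-0, 28 genes were called, and 25 to 31 were called under every other setting, with 23 to 29 when single libraries were left out. Of all genes, 37.5% were called in the main fit, 9.17 to 45% under the other settings and 23.6 to 39.1% in the omissions. In pad4 against Col-0, 0 genes were called under every setting, where 0.427 to 1.59% of all genes were called. For aig2abc pad4 against pad4 (0 called), DESeq2 called 2, the library score as a covariate 21, and omissions of a library 0 to 4. Of all genes, these settings called 5.72%, 11.4% and 2.41 to 5.89%. For aig2abc pad4 against Col-0 (0 called), DESeq2 called 2, the covariate 5 and omissions 0, where 2.93%, 6.28% and 1.03 to 2.05% of all genes were called. For aig2abc pad4 against aig2abc (22 called), the covariate left 8 and omissions 17 to 25, where 2.15% and 9.04 to 34.7% of all genes were called. For the interaction (16 called), the covariate left 3 and omissions 8 to 22, where 0.57% and 2.72 to 28.9% of all genes were called. With the covariate, the sign turned in aig2abc against Col-0 for LHCA5 (-0.004), PSAH2 (-0.077) and PSAK (0.604), and the cause was not tested. With library totals that exclude these genes, their summed CPM was 299100 in Col-0, 315900 in pad4 and 240100 in aig2abc pad4, in place of 236900, 253000 and 173900, because the denominator is smaller.

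With the replicate number as a block, 29 genes were called in aig2abc and 0 in either pad4 or aig2abc pad4, each against Col-0. Of all genes, 39.8, 0.471 and 2.61% were called in these 3 comparisons. In aig2abc pad4 the block gave 24 against aig2abc (20 higher, 4 lower), where 28.8% of all genes were called. Against pad4 it gave 1, where 3.44% of all genes were called. This gene was LHCB1.4, at -1.11 (edgeR adjusted p = 0.0451). For the interaction the block gave 17, 12 positive and 5 negative in place of 14 and 2, where 17.7% of all genes were called. Of the 17, 14 were called without the block. Deviations of same-numbered libraries correlated at -0.07, 0.05 and -0.07 between aig2abc and Col-0, 0.55 and -0.12 between aig2abc pad4 and pad4, 0.52 and 0.13 between pad4 and Col-0, 0.54, -0.27 and 0.43 between aig2abc pad4 and Col-0, and -0.02, -0.06 and -0.15 between aig2abc pad4 and aig2abc. In the 3 comparisons with 3 pairs, 2, 4 and 0 of 6 libraries, for aig2abc and Col-0, aig2abc pad4 and Col-0, and aig2abc pad4 and aig2abc, correlated best with their own number. Since not every pair was over 0.1 in any comparison with 3 pairs, the numbers were not taken to pair the libraries. In simulation 11 and 15 of 100 changes of 2-fold were called, so changes of that size can be missed. The simulations changed only 100 genes at each size, whereas 5656 of 15082 genes were called in aig2abc against Col-0. Their rates therefore need not hold for the genes described here. The fit on the groups compared alone was not run for the interaction, which needs all 4 genotypes.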
